A study of Oryza sativa Japonica Group with 6 samples.

Results

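The expression of 10 WRKY transcription factor genes was followed in cold-treated early rice seedlings that overexpressed the lipid transfer protein gene OsLTPL159. The genes were taken by locus identifier, 10 of the 55986 loci in the data. They were OsWRKY62 (LOC_Os09g25070) and OsWRKY76 (LOC_Os09g25060), which lie side by side on chromosome 9, their relatives OsWRKY28 (LOC_Os06g44010) and OsWRKY71 (LOC_Os02g08440), and OsWRKY45 (LOC_Os05g25770), OsWRKY53 (LOC_Os05g27730), OsWRKY70 (LOC_Os05g39720), OsWRKY24 (LOC_Os01g61080), OsWRKY13 (LOC_Os01g54600) and OsWRKY30 (LOC_Os08g38990). The overexpression plants (OEZ) carried the OsLTPL159 allele of the introgression line IL112 under the constitutive 35S promoter in the japonica variety Zhonghua17, and the control plants (ZH17) were nontransformed Zhonghua17. All plants were seedlings with buds of about 5 mm kept at 2 °C for 3 h, so no unchilled plants enter the comparison. Each genotype had 3 RNA-seq libraries, each from a pool of 50 plants, and the labels do not say whether the OEZ pools came from 1 or several transgenic lines.

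WRKY proteins are plant transcription factors that bind the W-box, a short element found in the promoters of many defence and stress genes, and many of them bind the promoters of one another. In rice, OsWRKY62, OsWRKY76, OsWRKY28 and OsWRKY71 form one clade whose members mostly act as repressors of defence against blast fungus and bacterial blight. Other family members, such as OsWRKY45, OsWRKY53 and OsWRKY13, promote resistance to blast fungus. The family also acts in germination, drought and cold, and overexpression of OsWRKY76 is known to improve cold tolerance while lowering blast resistance.

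Values are FPKM, fragment counts divided by exon length and by the number of fragments mapped, so levels of different genes can be compared per length. Between 27083 and 27345 loci were above 0 per library, and the FPKM of a library summed to between 856329 and 902931. The overexpressed gene itself, OsLTPL159, averaged 2516 ± 20.7 FPKM in OEZ and 137 ± 4.98 FPKM in ZH17 (SD, n = 3 pools each). Transcripts of grain and of green tissue differed between pools. Summed FPKM of 4 alpha-amylase loci, enzymes of the germinating grain, was 1.89, 167 and 2.05 in OEZ replicates 1, 2 and 3, against 68.9, 180 and 120 in ZH17 replicates 1, 2 and 3, and that of 4 grain storage protein loci was 0.466, 64.6 and 0.223 in OEZ, against 1.38, 17.2 and 14.0 in ZH17. The high alpha-amylase sums came from LOC_Os02g52700 and LOC_Os02g52710. LOC_Os06g49970 and LOC_Os08g36910 stayed at or below 1.75 FPKM in every pool and were not highest in OEZ replicate 2. Summed FPKM of 11 chlorophyll A-B binding protein loci, markers of green shoot tissue, was 5748 to 6783 in OEZ, against 10130 to 10770 in ZH17. By the test given below, 10 of the 11 were lower and 1 higher in OEZ, beside 1.42% and 1.56% of all tested loci. The 1 that was higher, LOC_Os09g26810, lies inside the chromosome 9 stretch described below. These marker sets were assembled by description from the study's list of differentially expressed genes, which came from the same libraries. A high share of calls is built into such a choice, so the calls among the 11 are a description. None of the loci was at 0 in all 6 libraries, and their part in the WRKY values was not tested. In such bulk samples, fewer cells of a type and less RNA per cell cannot be told apart.

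Most of the 10 WRKY genes had lower FPKM in OEZ. OsWRKY28, OsWRKY24 and OsWRKY70 fell past the test, at 0.517, 0.50 and 0.444 times their ZH17 level, and none of the 10 rose past it. In 7 of the 10 genes every OEZ pool was below every ZH17 pool, in OsWRKY62 every OEZ pool was above, and in OsWRKY53 and OsWRKY30 the pools overlapped. The test was limma on log2(FPKM + 0.1) over the 22841 loci that averaged 0.5 FPKM or more. A locus passed with a 1.5-fold or larger change and a Benjamini-Hochberg adjusted p under 0.05, and all 10 genes were among the loci tested. By these criteria 2.98% of the tested loci differed, 1.42% lower and 1.56% higher in OEZ, beside 3 of 10 lower and 0 of 10 higher among the WRKY genes. The 10 genes were chosen with earlier results of these data known, so their counts are a description. Every OEZ pool was below every ZH17 pool at 13.2% of the tested loci, and above at 16.0%. The median log2 fold change, OEZ over ZH17, was -0.47 over the 10 genes and 0.02 over all tested loci. An exact two-sided permutation test over 3 pools against 3 cannot go below a p of 0.1, the value it gave for each of the 8 genes whose pools did not overlap.

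**Figure D1:**
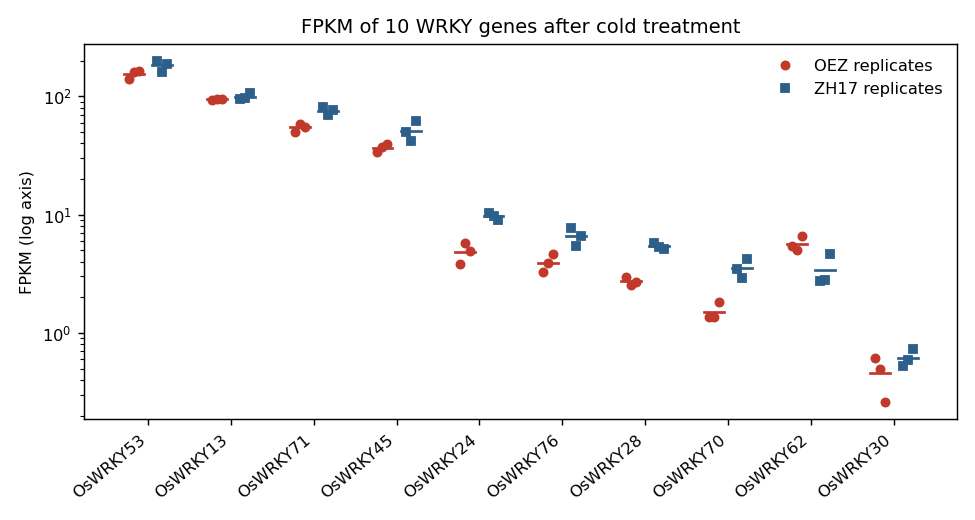
FPKM of the 10 WRKY genes on a log axis, with OEZ pools as red circles and ZH17 pools as blue squares, 3 of each per gene, and a short line at each genotype's mean. Genes are ordered by their ZH17 mean, which spans 0.616 FPKM for OsWRKY30 to 182 FPKM for OsWRKY53, and in OsWRKY62 alone of the 10 all red circles lie above the blue squares.

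OsWRKY28, a repressor within the clade that is known to lower blast resistance, had 2.96, 2.54 and 2.72 FPKM in OEZ replicates 1, 2 and 3, against 5.75, 5.30 and 5.14 FPKM in ZH17 replicates 1, 2 and 3. The lowest ZH17 pool stood well clear of the highest OEZ pool, and the spread within a genotype was small (SD 0.211 in OEZ and 0.317 in ZH17). Its log2 fold change was -0.95 (SE 0.11, 95% confidence interval -1.22 to -0.69, limma adjusted p = 0.0063). It was the only one of the 10 genes that passed in each of the 14 other fits that could test it, with adjusted p between 0.006 and 0.042.

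OsWRKY71 represses gibberellin-induced genes in the aleurone and has also been linked to defence and cold tolerance. It had 49.9, 58.4 and 55.4 FPKM in the OEZ pools, against 81.1, 69.6 and 76.5 FPKM in the ZH17 pools. The genotypes did not overlap, yet the step between them was smaller than for OsWRKY28. Its log2 fold change was -0.47 (SE 0.08, limma adjusted p = 0.023), which passed on p and not on the 1.5-fold criterion. On p alone, without a fold criterion, 4 of the 10 WRKY genes were lower in OEZ, and so were 3.14% of all tested loci.

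Within the clade, OsWRKY71 supplied most of the FPKM. It made up 81.1%, 83.6% and 80.0% of the summed FPKM of the 4 relatives in OEZ, against 83.4%, 83.7% and 82.4% in ZH17.

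OsWRKY76 and OsWRKY62 differed in opposite directions, although they are neighbours and their proteins are known to interact with each other. OsWRKY76 had 3.29, 3.88 and 4.61 FPKM in the OEZ pools, against 7.65, 5.45 and 6.62 FPKM in the ZH17 pools. Every OEZ pool was below every ZH17 pool, with an SD of 0.662 FPKM in OEZ and 1.10 FPKM in ZH17. The log2 fold change was -0.73 (SE 0.17, 95% confidence interval -1.13 to -0.33), and the limma adjusted p of 0.054 missed the threshold. It passed, at an adjusted p of 0.049, only when the test was limited to loci that averaged 5 FPKM or more, and over its 15 other fits the adjusted p lay between 0.049 and 0.15.

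OsWRKY62, also known as a binding partner of the immune receptor XA21 whose signalling it represses, had 5.38, 5.06 and 6.55 FPKM in the OEZ pools, against 2.74, 2.81 and 4.62 FPKM in the ZH17 pools. ZH17 replicate 3 stood nearer to the OEZ pools than to the other ZH17 pools. The log2 fold change was 0.76 (SE 0.22, 95% confidence interval 0.24 to 1.27), and the limma adjusted p of 0.094 missed the threshold. Without ZH17 replicate 3 it was 0.996 with an adjusted p of 0.014, the only one of its 14 other fits that passed, and over these fits the adjusted p lay between 0.014 and 0.25. Both OsWRKY62 and OsWRKY76 are on the study's list of differentially expressed genes. That list was drawn from the same libraries with the study's own test, so it is no independent evidence.

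Set against each other within each pool, which removes scaling between libraries, the pair exchanged order. The log2 ratio of OsWRKY62 to OsWRKY76 was 0.69, 0.38 and 0.50 in OEZ, against -1.45, -0.93 and -0.51 in ZH17. OsWRKY62 was the higher of the pair in 3 of 3 OEZ pools and the lower in 3 of 3 ZH17 pools. The ratio differed by 1.49 on the log2 scale, 2.80-fold, and the exact two-sided permutation p was 0.1, the smallest that 6 pools allow. The pair was chosen with earlier results of these data known, inside a stretch bounded by loci higher in OEZ. The ratio and its p are therefore a description. The summed FPKM of the pair overlapped between genotypes, at 8.67, 8.95 and 11.2 in OEZ and 10.4, 8.26 and 11.2 in ZH17. Of that sum OsWRKY62 supplied 62.1%, 56.6% and 58.7% in OEZ, against 26.4%, 34.0% and 41.1% in ZH17.

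**Figure D2:**
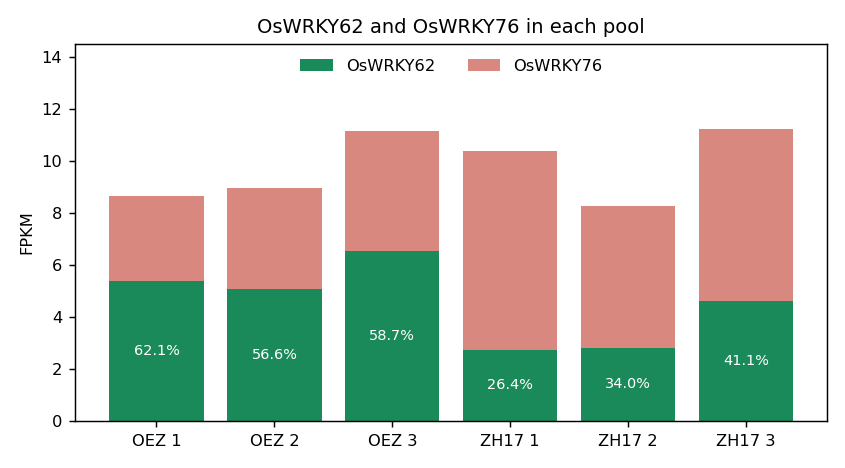
Stacked bars of FPKM for OsWRKY62 (green, below) and OsWRKY76 (pink, above) in each of the 3 OEZ pools, left, and the 3 ZH17 pools, right, with the percent supplied by OsWRKY62 printed on the bars. Bar heights overlap between genotypes, from 8.67 to 11.2 FPKM in OEZ and from 8.26 to 11.2 FPKM in ZH17, while the green part is the larger in each OEZ pool and the smaller in each ZH17 pool.

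The pair lies inside a stretch of chromosome 9, LOC_Os09g24720 to LOC_Os09g27040, in which neighbouring loci had higher FPKM in OEZ. The bounds of the stretch were set from these same data, so its direction is a description with no test. Apart from the pair, 110 loci were tested there, with a median log2 fold change of 0.93 (interquartile range 0.76 to 1.10), and all 110 were above 0, the lowest at 0.02. None of the 110 had a log2 fold change as low as that of OsWRKY76, and 28 had one lower than that of OsWRKY62. In 102 of them every OEZ pool was above every ZH17 pool, and in 0 every OEZ pool was below.

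The 4 tested loci on either side of the pair show the step at OsWRKY76. On one side were LOC_Os09g24990 (a CAF1 family ribonuclease, log2 fold change 1.02), LOC_Os09g25000 (annotated spotted leaf 11, 0.85), LOC_Os09g25040 (joka8, 0.96) and LOC_Os09g25050 (a PPR repeat protein, 0.93). On the other were the protein kinases LOC_Os09g25090 (0.69) and LOC_Os09g25100 (0.74), LOC_Os09g25150 (a cinnamoyl-CoA reductase, 0.76) and LOC_Os09g25260 (a protein binding protein, 0.96). All 8 passed the test as higher in OEZ, with limma adjusted p from 0.0016 to 0.048, beside 1.56% of all tested loci. The stretch was bounded by its higher loci in these same data, so this count is a description. The next locus to OsWRKY76, LOC_Os09g25050, had 2.03, 1.65 and 1.82 FPKM in the OEZ pools, against 1.01, 0.737 and 1.01 FPKM in the ZH17 pools.

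Against the median of the other 110 loci in the same pool, OsWRKY76 stood at -2.51, -2.20 and -1.98 on the log2 scale in OEZ and at -0.28, -0.84 and -0.60 in ZH17. The difference was -1.66, given with no test, because the stretch was bounded by loci that were higher in OEZ and a gene with no change would also stand lower against them there. OsWRKY62 stood at -1.82, -1.83 and -1.48 in OEZ and at -1.73, -1.77 and -1.11 in ZH17, and the genotypes overlapped, with a difference of -0.17. Without ZH17 replicate 3, the difference of OsWRKY62 was 0.05.

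**Figure D3:**
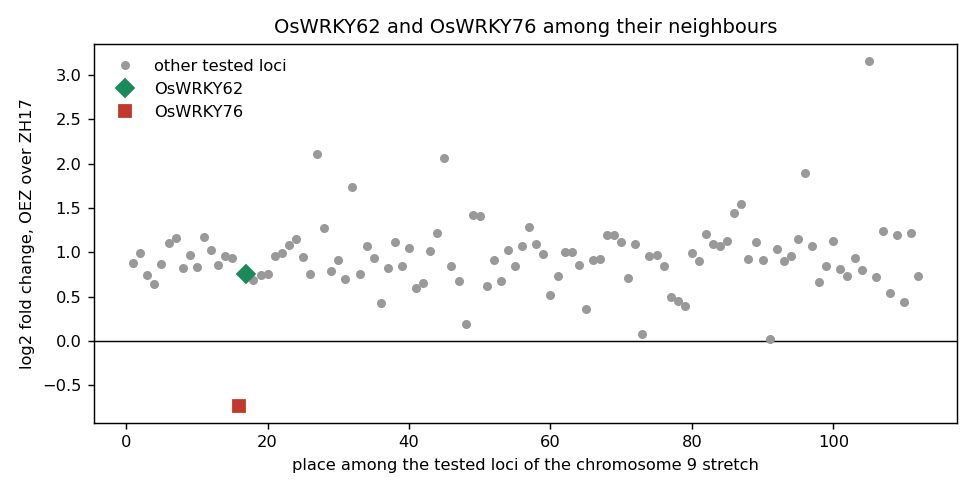
Log2 fold change, OEZ over ZH17, of the 112 tested loci of the chromosome 9 stretch in the order of their identifiers, with OsWRKY62 as a green diamond, OsWRKY76 as a red square and the other 110 loci as grey circles. OsWRKY62 at 0.76 lies among the grey circles, and OsWRKY76 at -0.73 is the only locus below the line at 0.

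Profiles most like those of the pair were sought among 20893 loci that averaged 1 FPKM or more, by the Euclidean distance between log2 values of the 6 pools centred on each gene's mean. The nearest to OsWRKY62 were LOC_Os08g39990 (an expressed protein, distance 0.230), LOC_Os10g31720 (a glycine-rich cell wall structural protein, 0.238) and LOC_Os05g47540 (a transcript with a conserved peptide upstream reading frame, 0.285). LOC_Os10g31720 had 44.1, 46.0 and 51.3 FPKM in the OEZ pools, against 20.8, 23.8 and 41.5 FPKM in the ZH17 pools, with the same high ZH17 replicate 3 as OsWRKY62. The nearest to OsWRKY76 were LOC_Os02g53410 (an expressed protein, 0.176), LOC_Os11g04360 (an alpha/beta hydrolase, 0.261) and LOC_Os04g43800 (a phenylalanine ammonia-lyase, 0.279). LOC_Os02g53410 had 9.65, 10.3 and 13.3 FPKM in the OEZ pools, against 20.4, 14.3 and 16.8 FPKM in the ZH17 pools, with OEZ replicate 3 and ZH17 replicate 1 the highest of their genotypes, as in OsWRKY76. These loci were picked by their nearness over the same 6 pools, so such likeness is built into the choice.

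OsWRKY24 and OsWRKY70 had the lowest OEZ levels relative to ZH17 of the 10 genes. OsWRKY24, a repressor of abscisic acid and gibberellin signalling in the aleurone, had 3.82, 5.76 and 4.94 FPKM in the OEZ pools, against 10.2, 9.70 and 9.03 FPKM in the ZH17 pools. The highest OEZ pool was well under the lowest ZH17 pool. The log2 fold change was -0.999 (SE 0.15, 95% confidence interval -1.36 to -0.64, limma adjusted p = 0.016). The call was lost without OEZ replicate 3 and without ZH17 replicate 2, at adjusted p of 0.064 and 0.066, with log2 fold changes of -1.02 and -0.996.

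OsWRKY70, which favours herbivore defence over growth and acts on gibberellin levels, had 1.36, 1.35 and 1.82 FPKM in the OEZ pools, against 3.50, 2.89 and 4.23 FPKM in the ZH17 pools. The genotypes were again apart, and OEZ replicate 3 and ZH17 replicate 3 were each the highest of their genotype. The log2 fold change was -1.17 (SE 0.20, 95% confidence interval -1.63 to -0.71, limma adjusted p = 0.020). The call was lost without OEZ replicate 1, OEZ replicate 2 or ZH17 replicate 1, at adjusted p of 0.077, 0.072 and 0.051. OEZ replicate 2 was the OEZ pool with high grain transcripts, and without it the log2 fold change was -1.10 for OsWRKY70, -0.90 for OsWRKY28 and -1.13 for OsWRKY24. By summed alpha-amylase FPKM it was also the OEZ pool nearest to ZH17 (167, against 68.9, 180 and 120). Leaving it out therefore does not even out grain transcripts between genotypes, and their part was not tested.

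**Figure D4:**
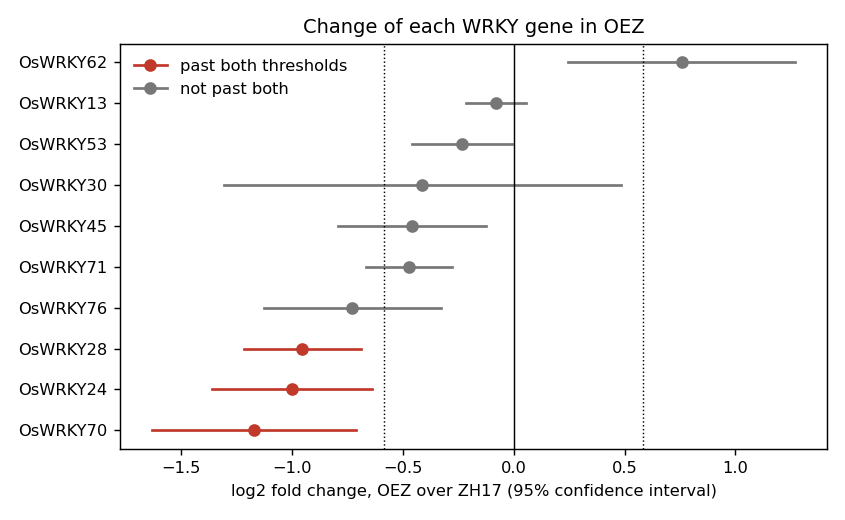
Log2 fold change, OEZ over ZH17, of each of the 10 WRKY genes with its 95% confidence interval from limma. Dotted lines mark a fold change of 1.5 in either direction, and the genes past the fold and adjusted p thresholds, OsWRKY28 at -0.95, OsWRKY24 at -0.999 and OsWRKY70 at -1.17, are in red.

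The 4 genes known for promoting blast resistance, OsWRKY45, OsWRKY53, OsWRKY13 and OsWRKY30, did not pass the test. All but OsWRKY30 were among the 4 most highly expressed of the 10. OsWRKY45, needed for salicylic acid and benzothiadiazole induced blast resistance, had 33.7, 37.3 and 39.3 FPKM in the OEZ pools, against 49.5, 41.8 and 62.1 FPKM in the ZH17 pools. The pools did not overlap but ZH17 varied widely (SD 10.2), and the log2 fold change was -0.46 (95% confidence interval -0.79 to -0.12, limma adjusted p = 0.11). OsWRKY53, which is phosphorylated by mitogen-activated protein kinases and acts in blast defence and brassinosteroid signalling, had 141, 161 and 162 FPKM in the OEZ pools, against 199, 160 and 188 FPKM in the ZH17 pools. ZH17 replicate 2 lay among the OEZ pools, and the log2 fold change was -0.23 (95% confidence interval -0.46 to -0.01, limma adjusted p = 0.21). Like OsWRKY24 and OsWRKY70, it belongs to the group of WRKY proteins that carry a pair of WRKY domains.

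OsWRKY13, which promotes salicylic acid signalling and suppresses jasmonate signalling, had 92.8, 94.4 and 94.8 FPKM in the OEZ pools, against 95.6, 96.3 and 106 FPKM in the ZH17 pools. Every OEZ pool was lower, by a margin smaller than the spread of the ZH17 pools, and the log2 fold change was -0.08 (95% confidence interval -0.21 to 0.06, limma adjusted p = 0.46). A fold change of 1.5 in either direction lies outside that interval. OsWRKY30, linked to drought tolerance and blast resistance, was near the filter on low values, with 0.613, 0.495 and 0.259 FPKM in the OEZ pools, against 0.525, 0.587 and 0.736 FPKM in the ZH17 pools. The pools overlapped, and the 95% confidence interval of its log2 fold change was -1.31 to 0.48. A 1.5-fold fall and no change both lie within that interval, so neither was shown. The log2 fold change was -0.41 with all pools and -0.13 without OEZ replicate 3.

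The levels of the 10 genes ran over a wide range in either genotype. In OEZ the order by mean FPKM was OsWRKY53, OsWRKY13, OsWRKY71, OsWRKY45, OsWRKY62, OsWRKY24, OsWRKY76, OsWRKY28, OsWRKY70 and OsWRKY30, in which OsWRKY62 and OsWRKY24, and OsWRKY24 and OsWRKY76, overlapped between pools. In ZH17 the first 4 and the last were the same, and between them came OsWRKY24, OsWRKY76, OsWRKY28, OsWRKY70 and OsWRKY62, in which OsWRKY76 and OsWRKY28, and OsWRKY70 and OsWRKY62, overlapped. OsWRKY62 thus had rank 5 in OEZ and rank 9 in ZH17. The 10 genes summed to 335, 370 and 373 FPKM in OEZ, against 455, 394 and 463 FPKM in ZH17, and OsWRKY53 supplied 42.1%, 43.4% and 43.6% of that sum in OEZ, against 43.6%, 40.5% and 40.6% in ZH17. OEZ replicate 1 was the lowest OEZ pool in 6 of the 10 and OEZ replicate 3 the highest in 6, and ZH17 replicate 2 was the lowest ZH17 pool in 5 and the highest in 0.

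Of 85 other WRKY loci, from a list written from general knowledge of the rice annotation, 66 passed the filter on low values and 19 did not. Of the 66, 1 fell past the test and 0 rose, beside the 1.42% and 1.56% of all tested loci given above. At an adjusted p under 0.05 with no fold criterion, 4 of the 66 were lower, beside 3.14% of all tested loci, and 0 were higher. Every OEZ pool was below every ZH17 pool in 18 of the 66 (27.3%), beside 13.2% of all tested loci, and above in 4, beside 16.0%, with 44 overlapping. Their median log2 fold change was -0.17. The one that fell, WRKY77 (LOC_Os01g40260), had 0.696, 0.532 and 0.931 FPKM in the OEZ pools, against 2.38, 3.78 and 3.99 FPKM in the ZH17 pools (log2 fold change -2.08, SE 0.28, limma adjusted p = 0.0096). Its OEZ pools were all well under the lowest ZH17 pool, but without ZH17 replicate 2 the call was lost and 0 of these loci passed.

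Of these 85 loci, 8 are on the study's list of differentially expressed genes, which was drawn from the same libraries and is no independent evidence of direction. The 7 that could be tested, WRKY77, WRKY108 (LOC_Os01g60600), WRKY49 (LOC_Os05g49100), WRKY47 (LOC_Os07g48260), WRKY117 (LOC_Os08g09840), WRKY41 (LOC_Os11g45930) and WRKY64 (LOC_Os12g02450), had every OEZ pool below every ZH17 pool, with log2 fold changes between -2.08 and -0.61, and 1 of the 7 passed. WRKY79 (LOC_Os03g21710) was under the filter, with 0.106, 0.133 and 0.241 FPKM in the OEZ pools, against 0.362, 0.975 and 1.09 FPKM in the ZH17 pools.

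Partners and possible targets were counted from the same list of the study. A high share of calls is built into loci chosen in this way, so their counts are a description, beside 1.42% lower and 1.56% higher over all tested loci. VQ proteins bind WRKY factors and alter their activity. Of 4 VQ loci, 2 fell past the test and 0 rose: LOC_Os03g20330 had 1.28, 2.19 and 1.37 FPKM in the OEZ pools, against 4.58, 3.66 and 6.81 FPKM in the ZH17 pools (log2 fold change -1.57, limma adjusted p = 0.025). LOC_Os05g32460 had a log2 fold change of -1.04 (limma adjusted p = 0.045). The other two, LOC_Os02g15290 and LOC_Os06g33970, had values of -0.94 and -0.68 and did not pass.

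Bet v I proteins are the class 10 pathogenesis-related proteins, and chitinases break down fungal cell walls. Of 5 Bet v I loci, LOC_Os12g36840 alone passed, with 0.153, 0.188 and 0.220 FPKM in the OEZ pools, against 1.16, 2.29 and 2.91 FPKM in the ZH17 pools (log2 fold change -2.87, limma adjusted p = 0.010). The ZH17 pools spread widely at its neighbours on chromosome 12. LOC_Os12g36850 had 31.7, 25.7 and 28.0 FPKM in OEZ, against 37.5, 109 and 197 FPKM in ZH17, and neither it nor LOC_Os12g36830, LOC_Os12g36880 or LOC_Os03g18850 passed. Of 6 chitinase loci, LOC_Os02g39330 (log2 fold change -0.63) and LOC_Os03g04060 (-1.59) fell past the test and LOC_Os05g33140 (0.95) rose past it. LOC_Os10g39680 (-1.41), LOC_Os06g51060 (-1.34) and LOC_Os06g51050 (-0.92) did not pass, at limma adjusted p of 0.052, 0.059 and 0.093. Every OEZ pool was below every ZH17 pool in 5 of the 6 and above in 1, beside 13.2% and 16.0% of all tested loci.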

How the data were processed

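Early seedlings of OEZ and ZH17 were sampled after cold treatment, and RNA was sequenced as paired-end TruSeq libraries. The authors mapped reads to the Nipponbare genome (IRGSP-1.0, MSU release 7) with TopHat2 and calculated FPKM per locus with Cuffdiff (version not given in the sources used here), and deposited the FPKM of every locus, 1 value for each replicate, unfiltered. The tool's own test needs reads and was not repeated.

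Loci that averaged 0.5 FPKM or more (22841 of 55986) were compared on log2(FPKM + 0.1) in limma 3.58.1 (R 4.3.3) with a variance trend and Benjamini-Hochberg adjustment over all of them, at the study's thresholds, a 1.5-fold or larger change with an adjusted p under 0.05. Fold changes on this scale understate the change of genes with low FPKM. Single genes and the ratio of OsWRKY62 to OsWRKY76 within pools were compared by exact two-sided permutation tests over samples (scipy 1.17.1, Python 3.11.15). The limma step was tested on simulated data. Pools of 50 plants are taken as biological replicates, as the study's methods describe them.

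The members, lists and bounds of the chromosome 9 stretch were chosen with earlier results of these data known. Named are the 10 WRKY genes, OsLTPL159, and the WRKY, VQ and Bet v I loci of the study's list. Also named are 4 tested neighbours on either side of the pair, and the 3 nearest profiles of OsWRKY62 and OsWRKY76. The 6 chitinases of the study's list were named after their values were seen. Descriptions come from the study's list. The RefSeq gene table (assembly ASM3414082v1) holds no MSU identifiers, matched 4 of the 10 genes by symbol and places 0 genes between OsWRKY76 and OsWRKY62, and none of its coordinates were used. Alternatives were pseudocounts of 1 and 0.01, filters of none, 1 and 5 FPKM, median-ratio and quantile scaling, no variance trend, a replicate block, each pool left out in turn, other fold criteria, the ratio of mean FPKM, 10 neighbours on either side, and counts without the chromosome 9 stretch.

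FPKM hold no read counts, so depth in reads is unknown; the steps between low FPKM put relative depth at 1.0 to 1.32 times that of ZH17 replicate 1, from a minority of the loci compared. Reads of overlapping or antisense loci and of near-identical copies, such as the Bet v I loci of chromosome 12, cannot be told apart in these values.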

Additional observations from a re-analysis of the deposited data

How the results depend on the processing

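All 10 WRKY genes kept the direction of their log2 fold change in every alternative fit that tested them, and OsWRKY28, which the filter at a mean of 5 FPKM left out, kept its call in the 14 others. The count of 3 WRKY genes was 1 (OsWRKY70) when a 2-fold change was asked for, and 2 to 4 when a pool was left out. Over all loci the count of 681 was 321 (201 higher, 120 lower) with a replicate block, 1371 without a fold criterion, 290 when a 2-fold change was asked for, and 327 to 967 when a pool was left out, lowest without OEZ replicate 3 and highest without ZH17 replicate 3. The count of 1 among the other WRKY loci was 0 at a mean of at least 5 FPKM, where WRKY77 was not tested, 4 without a fold criterion, and 0 to 1 when a pool was left out, with WRKY77 lost without ZH17 replicate 2. The count of 6 among the VQ, Bet v I and chitinase loci was 3 without the variance trend, 3 with the replicate block, and 3 to 10 when a pool was left out (3 without OEZ replicate 3 or ZH17 replicate 2, 10 without ZH17 replicate 1). The causes were not tested. OsWRKY62 against its neighbours differed by -0.288 to 0.046 when a pool was left out, the 0.046 without ZH17 replicate 3.

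Samples with the same number did not deviate together over all loci (correlations 0.02, 0.03 and -0.06). A shared batch that affects only some loci was not tested, and the sample titles give only a replicate number. With the replicate block OsWRKY24 missed the threshold (limma adjusted p = 0.064), while OsWRKY28 (0.042) and OsWRKY70 (0.045) passed. The difference in the log2 ratio of OsWRKY62 to OsWRKY76 stayed between 1.24 and 1.71, and that of OsWRKY76 against its neighbours was -1.58 with the 10 nearest loci on either side. With reads unknown, counting error of genes near 0.5 FPKM, such as OsWRKY30, could not be given.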
